A study of Danio rerio with 4 samples.

Results

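Tight junction genes were followed in RNA of the whole eye of adult zebrafish, 3.5 months after fertilisation. The members are the genes whose symbol in the array annotation begins with cldn, tjp, ocln, marveld, f11r, jam2, jam3 or cgn, leaving out cldn5b and cldnk, which mark endothelium and myelin. This rule used names and no measured value, but it was chosen with earlier results of these data known. It gave 57 of the 19260 genes that have a probe set with 1 symbol: 39 claudins, 1 claudin domain containing gene, 6 genes of MARVEL proteins, 6 of junctional adhesion molecules (JAM), 3 of zonula occludens (ZO) proteins and 2 of cingulins. A gene with several probe sets was read from the one with the highest mean, which applied to 1 member, cldng.

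There were 4 Affymetrix arrays, 1 for each genotype. The eyes came from eys+/-; lrp5+/- fish, which carry 1 copy of each mutation and are named double heterozygotes below, from lrp5-/- homozygotes, from eys-/- homozygotes and from wildtype fish. The labels give mixed sex for each sample and the same housing for all, at 28.5 °C with 14 hours of light and 10 hours of dark. The alleles, the number of fish behind an array and the hour of sampling are not given in the sources used here.

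Tight junctions seal the space between neighbouring cells of an epithelium or endothelium. Claudins span the membrane in 4 passes and set which ions and solutes pass between cells, some as barriers and others as pores. Occludin and the other MARVEL proteins, and the JAM proteins of the immunoglobulin family, join them in the membrane. ZO proteins and cingulins lie beneath, where ZO proteins hold the strands and cingulins link them to actin and myosin. In the eye, tight junctions of the retinal pigment epithelium and of retinal vessels form the blood-retina barrier, and those of the corneal surface close the eye to the outside. Zebrafish have many more claudin genes than mammals, several of them side by side in the genome.

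Values are log2 signals after RMA, the authors' normalization, and differences are log2 differences between single arrays. With no replicates there is no error between fish, no p-value is given, and each difference compares a pair of arrays. A gene is called measured for a pair of arrays if it reached 6.57 on either of them. That level is the median over the values of probe sets with 1 symbol. A reading below that was not shown to be above background, and neither is one just above it. The fold thresholds were 2-fold, a log2 difference of 1, and 1.5-fold, a log2 difference of 0.58. Over all measured genes the robust SD of the difference from wildtype was 0.23 for the double heterozygote, 0.20 for lrp5-/- and 0.20 for eys-/-. That is a spread over genes, not between fish. Signals of different probe sets depend on their probes, so genes are not ranked against each other by level.

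The arrays had medians of 5.03 to 5.06 over 75212 probe sets and correlated at 0.978 to 0.983 pair by pair. Of the eye's own markers, 8 of 8 lens genes, 6 of 6 photoreceptor genes and 8 of 9 genes of the pigment epithelium and melanin were at or above 6.57 in all 4 arrays, as were 5 of 6 of Muller glia. Of all 19260 genes, 10743 reached that level on 1 array or more. Past 1.5-fold from wildtype were cryba1b of the lens in lrp5-/- (0.74), and rpe65a of the pigment epithelium in the double heterozygote (0.70) and in lrp5-/- (0.60). Of all measured genes 3.91% were higher by 1.5-fold in the double heterozygote and 2.07% in lrp5-/-. In RNA from whole eyes, fewer cells of a type and less RNA per cell cannot be told apart, and this holds for every difference below.

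Of the 57 tight junction genes, 18 were at or above 6.57 in all 4 arrays, 3 in some arrays (cldn11b, cldn33b and cldni) and 36 in none. Thus 21 of the 57 reached this level on 1 array or more, as did 10743 of all 19260 genes. The 18 were the claudins cldn1, cldn2, cldn5a, cldn7a, cldn7b, cldn11a, cldn12, cldn19, cldna, cldnb and cldne, the JAM genes jam2a, jam3a and jam3b, the ZO genes tjp1b and tjp2b, and the cingulin genes cgnb and cgnl1. No MARVEL gene was among them. For the 21 genes that reached this level somewhere, the range over the 4 arrays had a median of 0.39, against 0.28 for the 10743 genes of the series that did so. A range of 1.5-fold or more was found for 2 of the 21 (9.52%), and for 1397 of those 10743 genes.

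**Figure D1:**
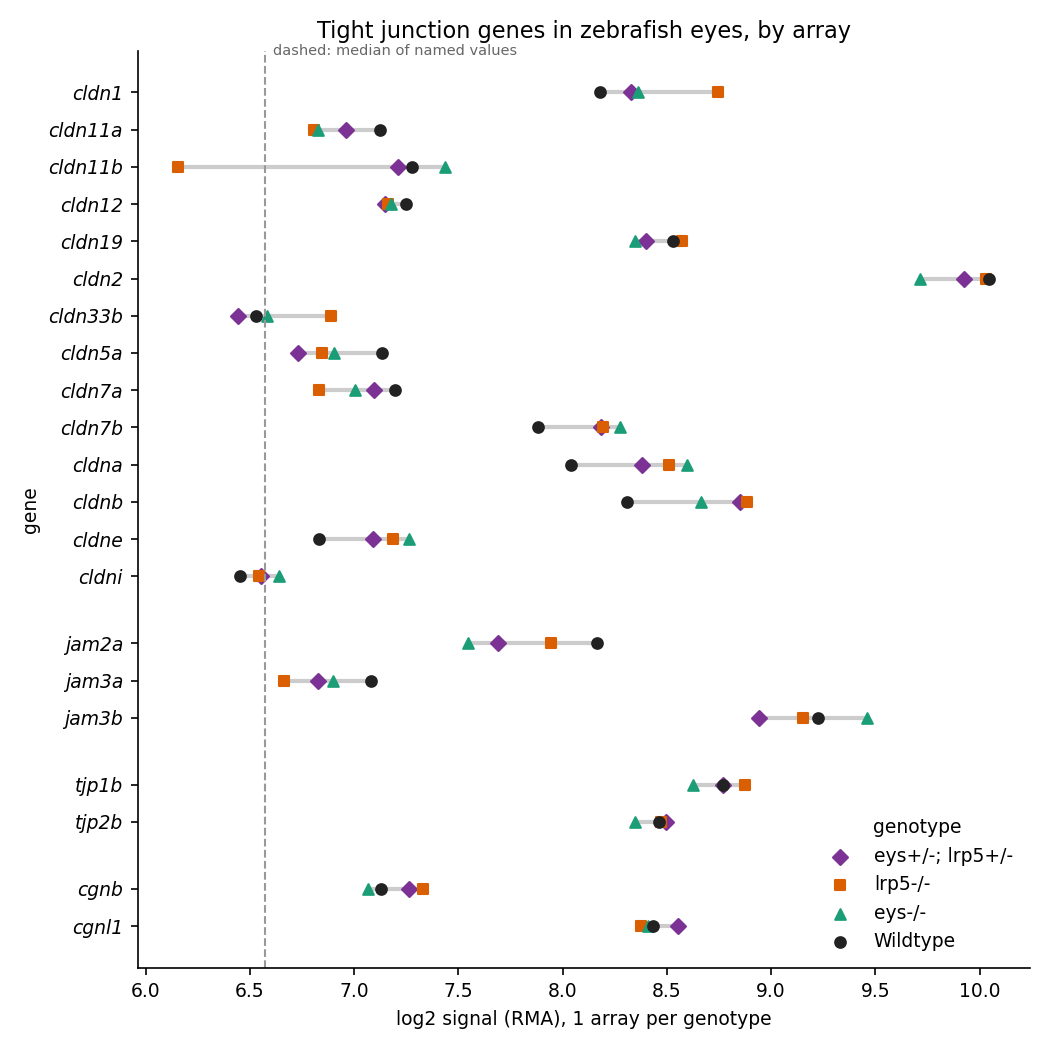
Log2 signal of the 21 tight junction genes at or above the median of named values (dashed line, 6.57) on 1 array or more; each point is the single array of a genotype and the grey bar is the range. The lrp5-/- reading of cldn11b, 6.16, stands apart, and the wildtype points of cldna, cldnb, cldne, cldn7b, cldn1 and cldni lie left of the others.

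Few members passed a fold threshold against wildtype. In the double heterozygote 0 of 19 measured members passed 2-fold, where 1.72% of all measured genes did. At 1.5-fold none was higher and none lower, where 3.91% and 2.25% of all genes were. In lrp5-/- 1 of 20 passed 2-fold, against 0.671% of all genes. This was cldn11b, which was lower, and it was also the single member past 1.5-fold on the lower side, where 1.19% of all genes were. On the higher side there was none, against 2.07%. In eys-/- 0 of 21 passed 2-fold, against 0.632%. There 1 was lower by 1.5-fold, jam2a, against 1.7% of all genes, and none was higher, against 1.58%. With 1 gene or none past a threshold, these counts do not set the members apart from other genes. The median difference of the measured members was -0.07 in the double heterozygote, -0.00 in lrp5-/- and -0.06 in eys-/-, while that of all measured genes was 0.00, -0.00 and -0.01.

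The sizes of the differences were not all alike. The median absolute difference of the measured members was 0.15 in the double heterozygote, the same as for all measured genes (0.15). In lrp5-/- it was 0.30 against 0.13 for all measured genes, and in eys-/- 0.19 against 0.13. With no floor these were 0.18 against 0.15 in lrp5-/- and 0.19 against 0.15 in eys-/-, over 57 members and 19260 genes. The contrast in lrp5-/- was thus smaller with no floor. The readings added there were not shown to be above background. They do not decide whether the measured members differ from other genes, and this was not tested. These 3 comparisons share the wildtype array, so a chance deviation of that array enters each of them.

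**Figure D2:**
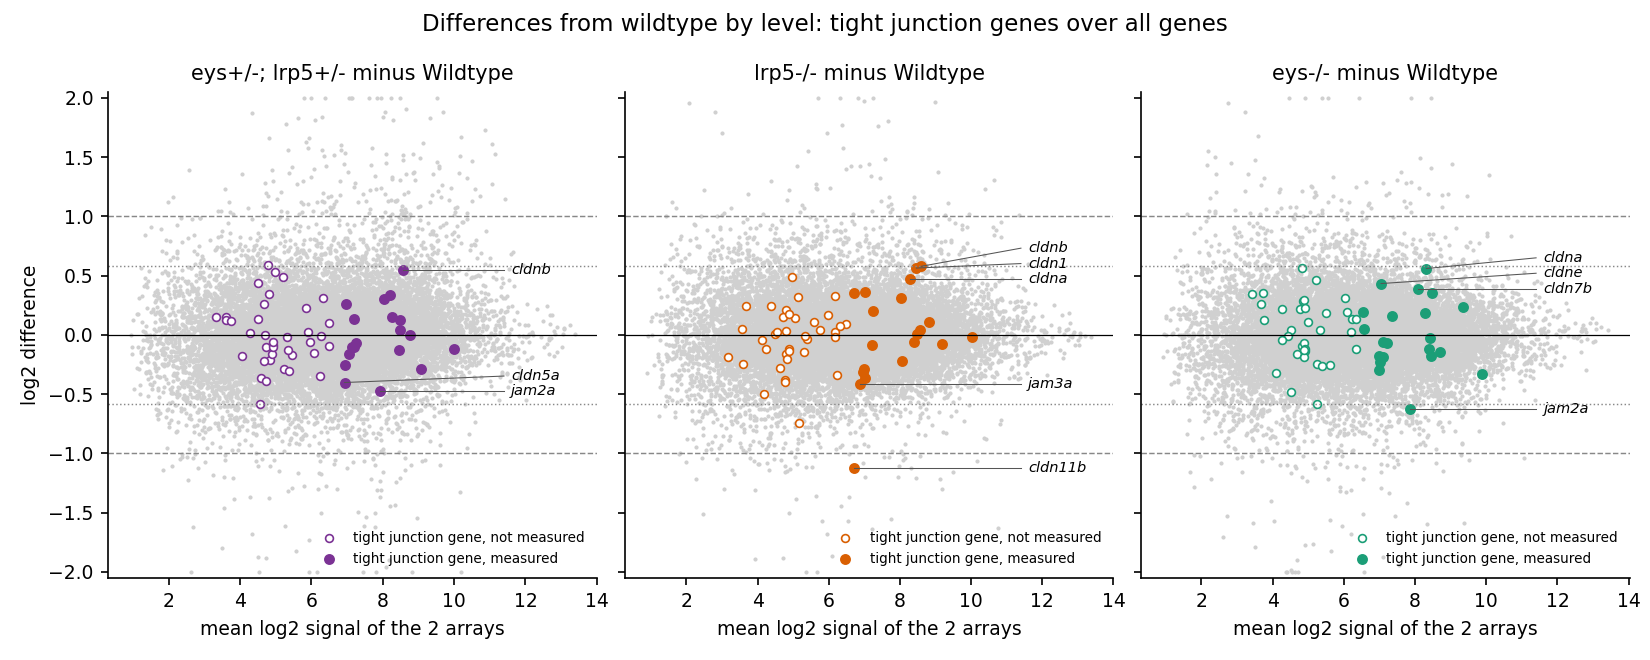
Log2 difference from wildtype (vertical) against the mean log2 signal of the pair of arrays (horizontal) for double heterozygote, lrp5-/- and eys-/- eyes. Grey points are all genes, with those beyond 2 drawn at the edge; filled coloured points are measured tight junction genes and open ones are those below 6.57; dashed and dotted lines mark 2-fold and 1.5-fold. Among filled points, cldn11b in lrp5-/- at -1.12 lies past the dashed line.

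Several claudins, cldnb, cldna, cldne, cldn7b and cldn1, read higher on each mutant array than on the wildtype array, by less than 1.5-fold each. So did cldni, by 0.10, 0.09 and 0.19 in double heterozygote, lrp5-/- and eys-/- eyes. Going the other way, cldn2, cldn5a, cldn7a, cldn11a, cldn12, jam2a and jam3a read lower on each mutant array than on the wildtype array. Members below 6.57 on every array also went both ways. For example, cldn10a and cldn15a were higher on each mutant array, and cldn18 and marveld1 lower. The differences share the wildtype array, so a deviation of that array alone could give either pattern. How common each pattern was among all genes was not tested. The gene cldnb, known in zebrafish from the migrating lateral line and other epithelia, read 8.85 in the double heterozygote, 8.89 in lrp5-/- and 8.66 in eys-/-, against 8.31 in wildtype. Its differences were 0.55 (1.46-fold), 0.58 (1.49-fold) and 0.36 (1.28-fold), and the wildtype array was the lowest of the 4. In lrp5-/- this was place 219 from the top of 10426 measured genes.

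The gene cldna read 8.38, 8.51 and 8.60 in double heterozygote, lrp5-/- and eys-/- eyes, against 8.04 in wildtype eyes. Its differences were 0.34, 0.47 and 0.56, the last at place 181 from the top of 10435 genes and the largest positive one of any measured member in eys-/-. The gene cldne, expressed in the outer layer of zebrafish embryos, read 7.09, 7.19 and 7.26 in the same order, against 6.83 in wildtype. Its differences were 0.26, 0.36 and 0.43. For cldna and cldne alike the eys-/- array was the highest and the wildtype array the lowest.

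The gene cldn7b, whose mammalian counterpart lies along the sides of epithelial cells and binds the adhesion protein EpCAM, read 8.18, 8.19 and 8.27 in double heterozygote, lrp5-/- and eys-/- eyes, against 7.88 in wildtype. Its differences were 0.30, 0.31 and 0.39. Its paralogue cldn7a was on the other side, at 7.10, 6.83 and 7.01 against 7.20 in wildtype, with differences of -0.10, -0.36 and -0.19. Between the copies the difference thus differed by 0.40, 0.67 and 0.58. The gene cldn1, whose product is needed for the skin barrier in mice, was highest in lrp5-/-. It read 8.33, 8.74 and 8.36 against 8.18 in wildtype, and its lrp5-/- difference was 0.56, against 0.15 in the double heterozygote and 0.18 in eys-/-.

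Markers of the surface epithelium had medians above 0 in the homozygotes. Their list was written with earlier results of these data known, so its counts are description and no independent support for the claudin differences. Of 12 marker genes, all at or above 6.57 on wildtype, 4 were higher by 1.5-fold in lrp5-/- (agr1, evpla, anxa1b and krt1-19d, at 0.76 to 0.98) and 1 was lower (epcam, -0.72), with a median of 0.28. Of all measured genes 2.07% were higher and 1.19% lower there. In eys-/- 4 were higher (agr1 at 1.44, icn, krt1-19d and anxa1b) and 0 lower, with a median of 0.42, where 1.58% and 1.7% of all genes were higher and lower. In the double heterozygote dspa was higher (0.66) and epcam lower (-0.70), against 3.91% and 2.25% of all genes, and the median was -0.03. The summed signal of the list was 12.94 in the double heterozygote, 13.14 in lrp5-/- and 13.26 in eys-/-, against 12.90 in wildtype, all on the log2 scale. The EpCAM gene epcam itself read 6.28 and 6.26 in double heterozygote and lrp5-/- eyes and 7.42 in eys-/- eyes, against 6.98 in wildtype. It was above wildtype in eys-/- (0.44), as cldn7b was. Unlike cldn7b it was below wildtype in the double heterozygote and lrp5-/-. Its readings there are under 6.57, so the size of those differences is uncertain. The part of this tissue in the claudin readings was not tested.

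These directions hold against the wildtype array. In the alternative that follows, the reference includes the other mutant arrays. For a gene above wildtype on each mutant array, that reference lowers every difference by design, so it does not test the difference from wildtype. With each mutant array compared instead to the average of all the remaining arrays, cldna, cldne and cldn1 in the double heterozygote differed by -0.0042, -0.0031 and -0.10, and cldnb in eys-/- by -0.02, each of the other sign. In lrp5-/- the values of cldnb, cldna and cldne stayed above 0, at 0.28, 0.17 and 0.13. Those of cldn7b were 0.07 in the double heterozygote, 0.08 in lrp5-/- and 0.19 in eys-/-.

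Several of these genes are neighbours in the RefSeq gene order. Altogether 23 members lie in 8 runs, in which successive members have at most 3 other protein-coding genes between them. In the run cldnj, cldne, cldnf, cldna, the 2 genes cldne and cldna were at or above 6.57 in all 4 arrays, and the other 2 were below it in all. In the run of cldn3c, cldn3d, cldnb, cldn29, cldnd and cldn30, only cldnb reached that level. Among its neighbours, cldn29 differed by -0.16 in the double heterozygote, 0.14 in lrp5-/- and -0.13 in eys-/-. The other neighbours cldn3d (0.12, 0.25 and 0.26), cldnd (0.26, 0.02 and 0.56) and cldn30 (0.35, 0.15 and 0.22) were above wildtype on each mutant array, and cldn3c differed by 0.43, -0.12 and -0.04. All these neighbours are below 6.57, so whether they share the pattern of cldnb cannot be read from them. The gene cldnj, needed for ear stones in zebrafish embryos, differed by -0.39, -0.20 and -0.07, opposite in sign to cldne beside it. Claudins of such runs are related in sequence. Whether probes are shared between them was not tested, and these readings are uncertain to that extent.

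**Figure D3:**
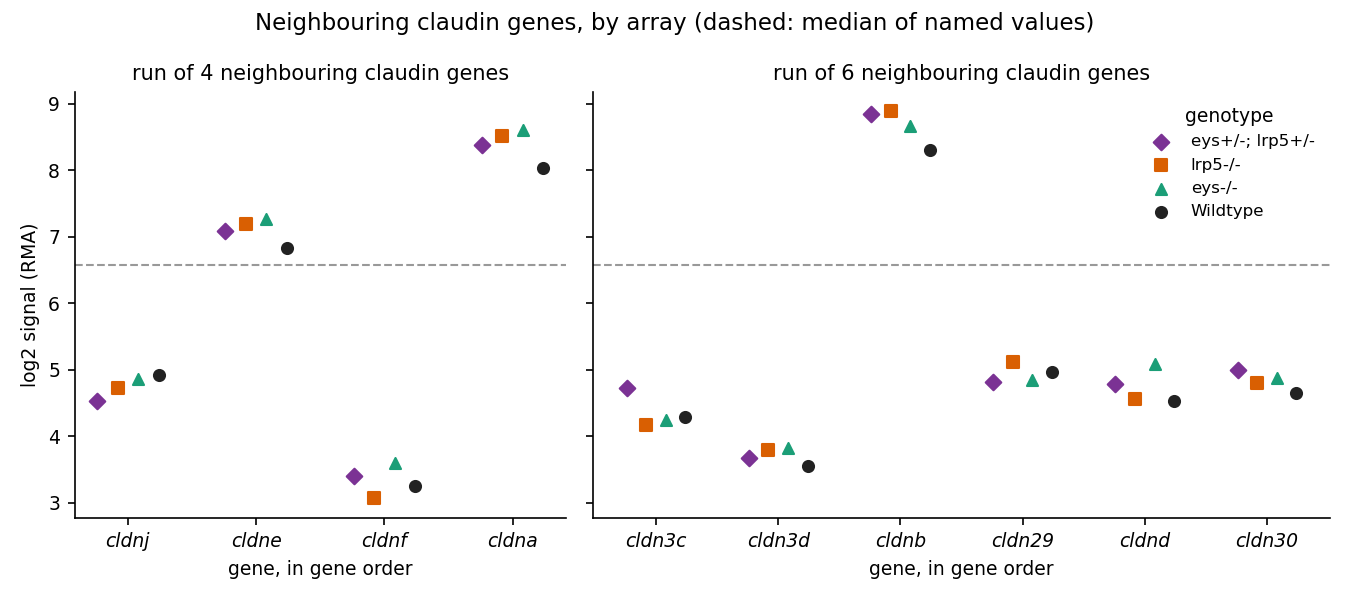
Log2 signal on each array (points, 1 array per genotype) for the run of 4 neighbouring claudin genes with cldna and the run of 6 with cldnb, in gene order; the dashed line is the median of named values. Within the first run cldne and cldna lie above the line and in the second cldnb does, each with wildtype lowest, while the other 7 genes lie below it.

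The one 2-fold difference was that of cldn11b. Claudin of this type forms the tight junctions of myelin sheaths and of the testis in mice. It read 7.21 in the double heterozygote, 6.16 in lrp5-/- and 7.44 in eys-/-, against 7.28 in wildtype. The lrp5-/- array stood below the other 3, which lay within 0.22 of each other. The difference of lrp5-/- from wildtype was -1.12 (2.17-fold lower), place 19 from the bottom of 10426 genes, and against eys-/- it was -1.28 (2.43-fold lower). The double heterozygote was higher than lrp5-/- by 1.05. The lrp5-/- reading is below 6.57, so the size of these differences is uncertain. By its range over the arrays it was number 200 of the 10743 genes. The paralogue cldn11a read 6.96, 6.81 and 6.83 in double heterozygote, lrp5-/- and eys-/- eyes, against 7.12 in wildtype, with differences of -0.16, -0.32 and -0.30.

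Myelin markers differed from each other in pattern. The myelin basic protein gene mbpa read 9.07, 9.44 and 8.58 in the 3 mutant arrays in that order, against 10.17 in wildtype, so it was lowest in eys-/- rather than in lrp5-/-. The myelin claudin cldnk, which the rule leaves out, read 6.92, 6.91 and 6.68 against 6.88 in wildtype. The glial factor sox10 read 6.85, 6.75 and 6.91 against 6.85 in wildtype. Like cldn11b it was lowest in lrp5-/- and highest in eys-/-, but over a narrow range. The gene olig2 was below 6.57 in all 4 arrays. The summed signal of these 4 genes was 9.63, 9.88 and 9.30 against 10.46 in wildtype on the log2 scale, lowest in eys-/-, where cldn11b was highest. This sum follows mostly mbpa, which had the highest signal of the 4. The part of myelin in the reading of cldn11b was not tested.

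The gene next to cldn11b on one side, zgc:194621, was looked at after the value of cldn11b was known. It read 7.52 in the double heterozygote, 7.42 in lrp5-/- and 8.62 in eys-/-, against 8.52 in wildtype. The lrp5-/- difference of -1.11 was close to that of cldn11b, but the double heterozygote was also low for this gene, which it was not for cldn11b. Of the 10 protein-coding genes on each side of cldn11b, 17 had a probe set and 11 were measured in this comparison. Besides zgc:194621, and1 passed 1.5-fold, on the higher side at 0.84 in lrp5-/-, and it was lower in eys-/- (-1.11). Of all measured genes 2.07% were higher by 1.5-fold and 1.19% lower in lrp5-/-. The wildtype reading of and1, 6.64, is just above 6.57 and its eys-/- reading, 5.52, is below that level. The size of the differences of and1 is therefore uncertain. The other 9 measured neighbours lay between -0.26 and 0.23 in lrp5-/-.

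**Figure D4:**
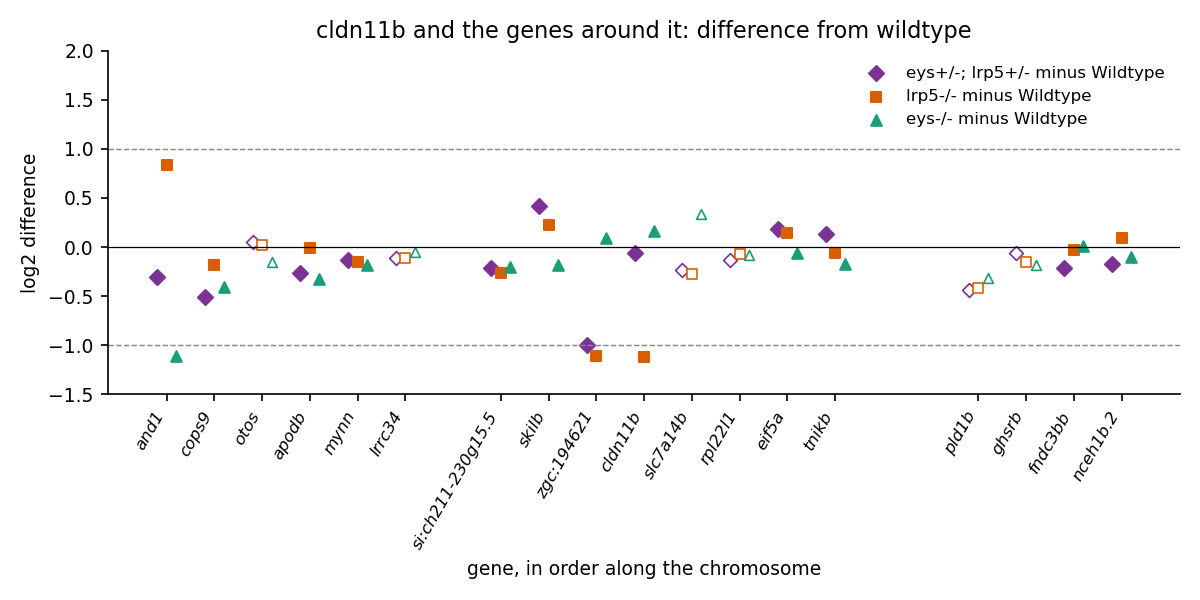
Log2 difference from wildtype (vertical) for cldn11b and the genes around it in gene order (horizontal), in double heterozygote, lrp5-/- and eys-/- eyes. Open symbols are genes below the median of named values in that comparison and dashed lines mark 2-fold. In lrp5-/- both cldn11b and zgc:194621 lie near -1.1, and in the double heterozygote only zgc:194621 is near the line.

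Of claudins known from other barriers, cldn19, cldn2 and cldn12 differed by less than 1.5-fold on every array. The gene cldn19, expressed in the pigment epithelium and the kidney and mutated in a human disease of kidney and eye, read 8.40, 8.57 and 8.35 in double heterozygote, lrp5-/- and eys-/- eyes, against 8.53 in wildtype. The differences of -0.13, 0.05 and -0.18 came to 1.13-fold at most. Over the same arrays the 8 measured markers of the pigment epithelium and melanin had medians of 0.23, 0.35 and 0.17. Their part in the reading of cldn19 was not tested. The gene cldn2, whose mammalian counterpart is a pore for cations and water, read 9.93, 10.03 and 9.71 against 10.05 in wildtype. Its eys-/- difference of -0.33 (1.26-fold lower) was the second largest on the lower side in eys-/-. The gene cldn12 had the narrowest range of the 21, reading 7.15, 7.16 and 7.18 against 7.25 in wildtype.

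Also read here were cldn33b and cldni, which reached 6.57 on some arrays. The gene cldn33b read 6.44, 6.89 and 6.58 in double heterozygote, lrp5-/- and eys-/- eyes, against 6.53 in wildtype, highest in lrp5-/-, where it differed from wildtype by 0.36. The gene cldni read 6.55, 6.54 and 6.64 against 6.45 in wildtype.

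The gene cldn5a, part of barriers of the zebrafish brain, read 6.73, 6.85 and 6.90 in double heterozygote, lrp5-/- and eys-/- eyes, against 7.13 in wildtype. Its differences were -0.40 (1.32-fold lower), -0.29 and -0.23, and wildtype was the highest of the 4. Relative to the average of the remaining arrays the eys-/- difference was -0.00059. For a gene below wildtype on each mutant array, that reference raises every difference by design, so it does not test the difference from wildtype. The endothelial claudin cldn5b, which the rule leaves out, read 6.37, 6.57 and 6.16 against 6.76 in wildtype.

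Among measured members, jam2a had the largest difference from wildtype after cldn11b. This gene, whose product binds that of jam3b in the fusion of zebrafish muscle cells and which is also made by endothelium, read 7.69, 7.94 and 7.54 in double heterozygote, lrp5-/- and eys-/- eyes, against 8.17 in wildtype. The eys-/- array was lowest and wildtype highest. The eys-/- difference was -0.62 (1.54-fold lower), place 150 from the bottom of 10435 genes, and in the double heterozygote it was -0.48 and in lrp5-/- -0.22. Against the mean of the other 3 arrays it was -0.39 in eys-/-, under 1.5-fold, -0.20 in the double heterozygote and 0.14, of the other sign, in lrp5-/-. As jam2a was below wildtype on each mutant array, that reference raises every difference by design. It therefore does not test the difference of jam2a from wildtype.

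The gene jam3a read 6.83, 6.67 and 6.90 against 7.08 in wildtype, with differences of -0.25, -0.41 and -0.18. Its paralogue jam3b read 8.94, 9.15 and 9.46 in double heterozygote, lrp5-/- and eys-/- eyes, against 9.23 in wildtype. It differed by -0.28, -0.07 and 0.24, so its sign parted from that of jam3a in eys-/-, and the double heterozygote was 1.44-fold lower than eys-/- (-0.52). The other JAM genes, jam2b, f11r.1 and f11r.2, were below 6.57 in all arrays. Of these f11r.1, for the JAM of epithelia and platelets in mammals, was highest in the double heterozygote, at 6.49 against 6.18 in wildtype.

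Endothelial markers had medians below 0 in these comparisons, and few passed 1.5-fold. Of 12 markers, 9 were measured, and their median was -0.12 in the double heterozygote, -0.19 in lrp5-/- and -0.32 in eys-/-. Past 1.5-fold on the lower side were she (-0.83) in the double heterozygote and cldn5b (-0.60) in eys-/-. Of all measured genes 2.25% and 1.7% were lower by 1.5-fold there. The eys-/- reading of cldn5b, 6.16, is below 6.57, so the size of its difference is uncertain. None passed in lrp5-/-, against 1.19% of all genes, and kdr (-0.45) and she (-0.41) differed most. Above 0 were 0, 2 and 1 of the 9, where 5251 of 10434, 5208 of 10426 and 4918 of 10435 measured genes were. The comparisons share the wildtype array, and the list was written with earlier results of these data known. The summed signal of the 12 markers was 11.24, 11.33 and 11.24 against 11.50 in wildtype on the log2 scale. The adherens junction gene of endothelium, cdh5, read 8.89, 8.78 and 8.69 against 9.01 in wildtype. The part of vessels in the readings of cldn5a, jam2a and jam3a was not tested.

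The genes of proteins beneath the membrane differed little. The gene tjp1b, whose ZO product is also needed at electrical synapses in zebrafish, read 8.77, 8.87 and 8.63 in double heterozygote, lrp5-/- and eys-/- eyes, against 8.77 in wildtype. The gene tjp2b read 8.50, 8.47 and 8.35 against 8.46 in wildtype. All 6 differences of these 2 genes were between -0.14 and 0.10. The third ZO gene, tjp3, was below 6.57 on every array and differed by -0.06, 0.33 and 0.19.

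Of the cingulin genes, cgnb read 7.26, 7.33 and 7.07 in double heterozygote, lrp5-/- and eys-/- eyes, against 7.13 in wildtype. The gene of its relative paracingulin, cgnl1, read 8.56, 8.38 and 8.41 against 8.43. The largest difference of either from wildtype was 0.20, that of cgnb in lrp5-/-.

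All 6 MARVEL genes were below 6.57 on every array. The occludin genes oclna and oclnb differed from wildtype by -0.01 and 0.03 in the double heterozygote, 0.07 and 0.16 in lrp5-/- and 0.14 and 0.31 in eys-/-. The tricellulin genes marveld2a and marveld2b, for the protein of corners where 3 cells meet, differed by -0.06 and -0.22, by -0.14 and 0.18, and by -0.13 and 0.23 in the same order of genotypes. The range of marveld3 over the 4 arrays was 0.06, the narrowest of all 57 members. The gene marveld1 read 6.07, 6.07 and 6.29 against 6.41 in wildtype.

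In all, 25 claudins and the claudin domain containing gene cldnd1a were below 6.57 on every array. Over all members not measured in a comparison, the differences ran from -0.58 to 0.59 in the double heterozygote, from -0.74 to 0.49 in lrp5-/- and from -0.59 to 0.56 in eys-/-. Genes of the whole series at such levels spread more widely than measured ones, with robust SDs of 0.26, 0.25 and 0.25. Past 1.5-fold were cldn23.1 in the double heterozygote, at 5.07 against 4.48, and cldn10b in lrp5-/- and eys-/-, at 4.79 and 4.95 against 5.53 in wildtype. That is 1 gene in each comparison, of 38, 37 and 36 unmeasured members, where 5.81%, 5.75% and 6.03% of all unmeasured genes did so. Of all 57 members, 25 were below the array median on some array, and such readings are not shown to be above background. How many of all genes were so low was not counted.

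Claudins of kidney and gut were among these low genes. The mammalian counterpart of cldn10a, cldn10b, cldn10d, cldn10e and cldn10l2 forms ion channels between kidney cells. The gene cldn10a differed by 0.48, 0.32 and 0.46 in double heterozygote, lrp5-/- and eys-/- eyes, and cldn10b by -0.17, -0.74 and -0.59, while cldn10d, cldn10e and cldn10l2 stayed within -0.32 and 0.29. The genes cldn15a, cldn15la and cldn15lb are relatives of a claudin of the gut, and cldn15a differed by 0.53, 0.49 and 0.29. The gene cldn18, of lung and stomach in mammals, differed by -0.36, -0.28 and -0.48. The gene cldn26 was lowest in the double heterozygote, at 4.28 against 4.86 in wildtype, and cldnd was highest in eys-/-, at 5.09 against 4.53. The remaining ones, cldn20, cldn23l, cldn23.2, cldn31, cldn34a, cldn35, cldn3c, cldn30, cldnf, cldng and cldnd1a, differed from wildtype by -0.50 to 0.43.

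The mutant arrays were also set against each other. Between lrp5-/- and eys-/-, 1 of 21 measured members passed 1.5-fold, cldn11b, against 5.44% of all genes. Besides it jam3b and jam3a were lowest in lrp5-/- relative to eys-/- (-0.31 and -0.23), and jam2a, cldn1 and cldn2 were highest (0.40, 0.38 and 0.32). Between the double heterozygote and eys-/-, 0 of 21 passed, against 7.63%. The members furthest apart were jam3b, cldn11b and cldna on the lower side (-0.52, -0.22 and -0.22) and cldn2, cgnb and cldnb on the higher side (0.21, 0.19 and 0.19). Between the double heterozygote and lrp5-/-, 1 of 20 passed, cldn11b again, against 2.88%. There cldn33b, cldn1 and jam2a were lower in the double heterozygote (-0.45, -0.42 and -0.25) and cldn7a and cgnl1 higher (0.26 and 0.18).

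Other junction genes were read from lists written by hand from general knowledge, with earlier results of these data known. Of 32 matched genes of scaffolds and cell polarity, 29, 28 and 28 were measured in double heterozygote, lrp5-/- and eys-/- eyes against wildtype. Their medians were 0.06, 0.02 and -0.01. The single call past 1.5-fold was pals1b, a scaffold of the Crumbs complex, at 9.15 in the double heterozygote against 8.51 in wildtype (0.64). That is 1 of 29, near the 3.91% of all measured genes that were higher there. In lrp5-/- pard6gb (0.30) and magi3a (0.26) differed most, and in eys-/- amotl2a (-0.36) and magi3a (0.27), none past 1.5-fold.

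Of the immunoglobulin-like, Crumbs and tricellular genes, 16 matched and 8, 8 and 7 were measured. The polarity gene crb1, mutated in human retinal dystrophies, read 7.67, 7.39 and 7.24 in double heterozygote, lrp5-/- and eys-/- eyes, against 7.06 in wildtype. It was past 1.5-fold in the double heterozygote (0.61), 1 of 8, where 3.91% of all measured genes were higher. In lrp5-/- ildr1b of tricellular junctions was past it, at 6.59 and a difference of 0.59, near 6.57, so its size is uncertain. That is also 1 of 8, where 2.07% of all measured genes were higher. In eys-/- none was past 1.5-fold, against 1.58% higher and 1.7% lower of all genes, with crb1 at 0.18 and ildr2 at -0.13.

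Adherens junctions lie beside tight junctions and hold cells together through cadherins and catenins. Of 17 measured genes none passed 1.5-fold in any of the comparisons with wildtype, and the medians were 0.07, 0.01 and 0.02. Of all measured genes 3.91% were higher and 2.25% lower in the double heterozygote. These shares were 2.07% and 1.19% in lrp5-/-, and 1.58% and 1.7% in eys-/-. The epithelial cadherin gene cdh1 differed by 0.32 in the double heterozygote and 0.41 in eys-/-. Next to it were nectin3a (0.27) in the double heterozygote and the catenin gene ctnnd1 (0.40) in eys-/-, and in lrp5-/- nectin4a (0.39) and the catenin gene ctnnb2 (0.34) differed most.

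Relatives in the claudin superfamily had medians of -0.01, -0.01 and -0.08 over 16, 15 and 15 measured genes. The single call past 1.5-fold was lim2.2, a copy of the lens fibre membrane gene, at 10.01 in the double heterozygote against 10.84 in wildtype (-0.84). That is 1 of 16, where 2.25% of all measured genes were lower. In lrp5-/- emp3a and lim2.5 were lowest (-0.47 and -0.43), and in eys-/- emp2 was lowest (-0.50) and lim2.3 highest (0.42).

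Regulators of epithelial junction genes were counted against the same thresholds. In lrp5-/- 3 of 24 measured were higher by 1.5-fold and 0 lower, against 2.07% and 1.19% of all measured genes: klf4 at 0.97, the grainyhead factor grhl3 at 0.81 and the epithelial splicing factor esrp1 at 0.69. In eys-/- 1 of 25 was higher, grhl3 at 0.85, and 2 were lower, wnk4a at -0.82 and wnk4b at -0.65, kinases that act on ion transport in the mammalian kidney, where 1.58% and 1.7% of all genes were higher and lower. The eys-/- reading of wnk4a, 6.13, is below 6.57, so the size of its difference is uncertain. In the double heterozygote 1 of 20 was higher, klf4 at 0.61, a share near the 3.91% of all genes. The medians were -0.03 in the double heterozygote, 0.06 in lrp5-/- and 0.11 in eys-/-. The gene grhl3, of surface epithelia, read 6.96, 7.45 and 7.49 in double heterozygote, lrp5-/- and eys-/- eyes, against 6.64 in wildtype. Wildtype was lowest, as for cldna, cldnb, cldne, cldn7b, cldn1 and cldni, but how common this was among all genes was not tested.

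**Figure D5:**
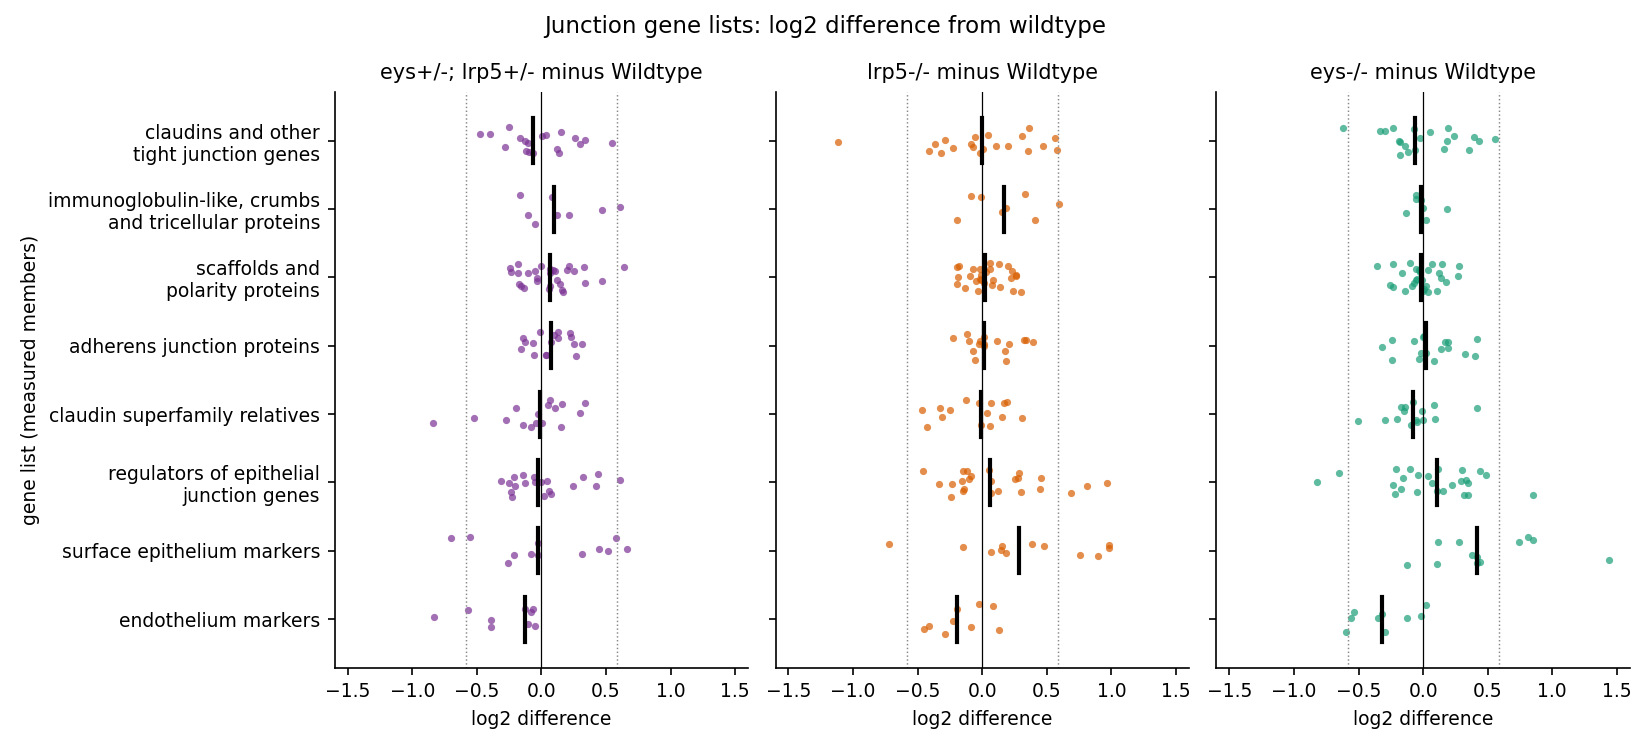
Log2 difference from wildtype (horizontal) of the measured members of each gene list (rows) in double heterozygote, lrp5-/- and eys-/- eyes; points are genes, black bars are medians and dotted lines mark 1.5-fold. Medians of the junction lists lie between -0.08 and 0.17, those of the surface epithelium markers are 0.28 in lrp5-/- and 0.42 in eys-/-, and those of the endothelium markers lie below 0 in all 3 comparisons.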

How the data were processed

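RNA of whole eyes was measured on 4 Affymetrix arrays, 1 per genotype. The deposited values are log2 signals, a scale read from the values, and per the submitters' processing notes they come from RMA and Transcriptome Analysis Console 4.0. RMA equalises the distributions of arrays, so a shift of most genes would be removed. The number of arrays limits the precision. Array annotation dated 2013 names 21661 of 75212 probe sets, 20806 with 1 symbol and 855 with several, which were not used. The gene identifiers of 56 of the 57 members were found in RefSeq genes of GRCz12tu, used for gene order and for matching lists by symbol or synonym. That table has 68 genes with names of the rule, 9 of them with no probe set of 1 symbol and not analysed here. No coordinates or sequences are given, since no source used here names the genome build of the array. The members and lists were chosen with earlier results of these data known.

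Differences, floors, counts and medians were computed with Python 3.11.15, numpy 2.4.6, pandas 2.3.3 and statsmodels 0.14.6 (lowess). No test was possible. Members past 1.5-fold, and the 6 highest and 6 lowest measured ones per comparison with wildtype (3 and 3 among mutants), are named by rule, and every member is named at least once. From each list come its members past 1.5-fold or else the 2 that differed most. The computation of the fold rules was checked on simulated arrays, with known changes added to genes well above the floor. That check does not show that the thresholds suit these data. Alternatives were no floor, a floor at the 75th percentile, the mean of a gene's probe sets, centring, quantile normalization, removal of the trend on level, and comparison with the average of all 3 remaining arrays.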

Additional observations from a re-analysis of the deposited data

How the results depend on the processing

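No paired analysis was possible because each genotype has 1 array, and for the same reason none could be left out in turn. Of the alternative values of counts and medians, 104 stayed within 1.5 times the count or within the robust SD of the differences, and 13 did not. With no floor the members past 1.5-fold became 1 in the double heterozygote, 2 in eys-/- and 2 in lrp5-/- against wildtype, and 2 in the double heterozygote against lrp5-/-, each with 1 unmeasured gene added. With the floor at the 75th percentile, 7.80, fewer members were tested and cldn11b was not, so the counts past 2-fold and past 1.5-fold were 0 in lrp5-/- against wildtype, in lrp5-/- against eys-/- and in the double heterozygote against lrp5-/-, and the median of lrp5-/- against eys-/- was 0.22 in place of -0.02. Against the mean of the other 3 arrays, 0 members passed 1.5-fold in eys-/-. There jam2a was at -0.39, since that reference includes the other mutant arrays, on which jam2a was also below wildtype. After quantile normalization 1 passed it in the double heterozygote against eys-/-, jam3b at -0.59. The cause of this change in jam3b was not tested. Of the alternative values of single members, 217 moved by less than the robust SD and 18 by more, these 18 all where the remaining arrays stood in for wildtype. The differences of members named by rule changed sign in 6 cases, all against the mean of the other 3 arrays. They are the 5 given beside the results and cldn11a in the double heterozygote (0.04). No other alternative changed a sign among them, and under centring and quantile normalization the median of all measured genes lay between -0.0175 and 0.0164 in every comparison.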
